A study of Mus musculus with 5 samples.

Results

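The genes of MHC class I antigen presentation were followed through 5 single-cell RNA libraries of mouse pancreas. The 10 genes, listed by name and not by any measured value, were H2-K1, H2-D1, B2m, Tap1, Tap2, Tapbp, Psmb8, Psmb9, Nlrc5 and H2-T23, and all 10 were among the 27998 genes of the count tables. They were read in 6 compartments: epithelial tumour cells, mesenchymal tumour cells, acinar cells, fibroblasts, macrophages and T cells. There was 1 library each of normal pancreas taken at 60 days of age, early KIC tumour at 40 days, late KIC tumour at 60 days, late KPfC tumour at 60 days and late KPC tumour at 6 months, all from untreated mice. As these names are generally used, all 3 models rely on a Cre transgene active in pancreatic cells. With it KIC mice delete the Cdkn2a locus, KPfC mice delete Trp53, and KPC mice carry a mutant Trp53 allele. The sources used here give neither the alleles nor the promoter driving Cre, and the normal pancreas has no genotype in the labels. The late KPfC library was C57BL/6 and the other groups had a mixed background of C57BL/6 and FVB. With 1 library per group there is no replicate check of any difference, and age, strain, sex and depth differ along with the groups.

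MHC class I molecules stand on the surface of nearly every nucleated cell and show peptides from the cell's own proteins to CD8 T cells. H2-K1 and H2-D1 encode the classical heavy chains, B2m their shared light chain, and H2-T23 the non-classical heavy chain Qa-1, which is read by receptors of natural killer cells. Peptides are cut by the proteasome, in which Psmb8 and Psmb9 encode catalytic subunits that replace constitutive ones when interferon is present. Tap1 and Tap2 form the pump that carries peptides into the endoplasmic reticulum, and Tapbp encodes tapasin, which holds empty class I molecules at that pump. Nlrc5 encodes a coactivator of these genes. In tumours, low class I presentation is known as a way by which cells are overlooked by T cells.

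Of the 10 genes, 8 lie on chromosome 17 of GRCm38. Psmb9 (34181987 to 34187764, minus strand), Tap1 (34187553 to 34197225), Psmb8 (34197721 to 34201454) and Tap2 (34203527 to 34216321, all 3 plus strand) follow each other there. H2-K1 (33996017 to 34000347, minus strand) and Tapbp (33915899 to 33929292, plus strand) lie before them, and H2-D1 (35262730 to 35267499, plus strand) and H2-T23 (36029773 to 36032855, minus strand) after them. B2m is on chromosome 2 (122147686 to 122153083, plus strand) and Nlrc5 on chromosome 8 (94434356 to 94527272, plus strand). The gene models of Psmb9 and Tap1 overlap on opposite strands at their starts. Class I heavy chains come from closely related gene copies. The sources used here do not give how reads matching several of them were counted, so H2-K1, H2-D1, H2-T23 and the other heavy chains are uncertain one by one.

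Promoter windows are shown because the genes varied together across classes. RefSeq (GRCm38.p6) gave windows of 250 bases before to 50 bases after a start site for 8 of the 10 genes. They are written 5′ to 3′ on the strand of the gene, with motif matches in capitals.
H2-K1, chr17:34000298-34000597, minus strand: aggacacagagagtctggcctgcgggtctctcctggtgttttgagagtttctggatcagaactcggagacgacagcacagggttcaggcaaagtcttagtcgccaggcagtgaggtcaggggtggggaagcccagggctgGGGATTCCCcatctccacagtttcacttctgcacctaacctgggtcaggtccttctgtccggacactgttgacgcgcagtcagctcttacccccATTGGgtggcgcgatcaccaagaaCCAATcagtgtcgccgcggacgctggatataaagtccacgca
H2-D1, chr17:35262844-35263143, plus strand: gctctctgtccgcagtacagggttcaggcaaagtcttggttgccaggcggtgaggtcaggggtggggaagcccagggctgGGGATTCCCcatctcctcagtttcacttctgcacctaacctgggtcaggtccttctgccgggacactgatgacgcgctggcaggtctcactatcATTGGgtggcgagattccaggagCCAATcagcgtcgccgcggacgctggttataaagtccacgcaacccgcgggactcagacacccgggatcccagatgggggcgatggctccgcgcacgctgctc
B2m, chr2:122147437-122147736, plus strand: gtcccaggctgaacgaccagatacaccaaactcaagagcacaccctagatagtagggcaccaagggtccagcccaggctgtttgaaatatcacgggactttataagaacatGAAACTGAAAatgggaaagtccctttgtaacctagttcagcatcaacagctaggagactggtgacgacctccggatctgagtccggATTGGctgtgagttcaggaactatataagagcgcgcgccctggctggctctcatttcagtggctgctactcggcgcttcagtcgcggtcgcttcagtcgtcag
Tap1, chr17:34187306-34187605, plus strand: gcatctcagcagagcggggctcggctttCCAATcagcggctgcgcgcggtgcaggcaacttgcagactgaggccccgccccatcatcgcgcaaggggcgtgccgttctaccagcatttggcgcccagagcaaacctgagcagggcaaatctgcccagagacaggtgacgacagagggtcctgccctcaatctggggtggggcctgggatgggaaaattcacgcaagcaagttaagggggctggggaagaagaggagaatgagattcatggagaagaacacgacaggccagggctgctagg
Psmb8, chr17:34197945-34198244, plus strand: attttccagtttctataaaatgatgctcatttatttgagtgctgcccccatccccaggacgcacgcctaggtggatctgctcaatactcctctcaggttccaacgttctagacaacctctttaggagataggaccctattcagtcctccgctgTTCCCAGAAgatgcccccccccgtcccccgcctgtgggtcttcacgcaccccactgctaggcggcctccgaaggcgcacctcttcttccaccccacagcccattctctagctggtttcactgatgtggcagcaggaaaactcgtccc
The motifs searched on both strands were GAAANNGAAA, the repeat read by interferon response factors, GGGATTCCC, an NF-kB palindrome, TTCNNNGAA, the STAT repeat, and CCAAT. No matches overlapped. GGGATTCCC is in the capitals of H2-K1 at -110 and of H2-D1 at -170, counted from the start site, and 0.353% of 32851 mouse promoter windows hold it. GAAANNGAAA is in B2m at -139 and, on the other strand, in H2-T23 at -124, and 3.44% of windows hold it. TTCNNNGAA is in Psmb8 at -97, against 8.30% of windows. CCAAT or its reverse complement is in 7 of the 8 genes and in 37.4% of windows. The Tap1 window shares 275 bases with that of Psmb9, which is read from the other strand. These matches describe letters and not binding. Each motif is a fixed pattern, so a window without a match can still hold a variant of the site.

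The libraries held 3488871 to 26749820 UMIs (unique molecular identifiers, 1 per captured transcript) in 938 to 3534 barcodes. After filtering, 10718 cells were left, with medians of 1776 UMIs per cell in early KIC and 9331.5 in late KIC at the extremes. Pairs of libraries shared 1 to 17 kept barcodes. In normal pancreas 658 kept cells had Xist but no Y-linked UMI and 123 the reverse, and in late KIC 344 and 272, so these 2 libraries hold cells of both sexes and cannot each come from 1 animal. In early KIC 2925 cells had Xist alone and 1 a Y-linked UMI alone, in late KPfC 0 and 1734, and in late KPC 737 and 0. Classes are named from marker transcripts and each name is short for "X-like". Epcam was at 919 to 1459 CPM (counts per 1000000 UMIs of the class) in epithelial tumour cells and 44.5 CPM in mesenchymal tumour cells, which had 6142 CPM of Vim. The top genes of that mesenchymal cluster include Krt8 and Krt18, which both tumour marker lists hold. Over the other markers its mean log2 distance from the median cluster was 2.36 for the mesenchymal list and 2.09 for the epithelial one. A gap of 0.5 between the best scores was asked of other classes and not between these, so the mesenchymal name is the less certain. Cdkn2a was at 1.14 CPM in epithelial cells of early KIC, 15.6 in late KIC, 642 in late KPfC and 468 in late KPC, and Trp53 at 22.4 CPM in late KPfC against 71.4 to 94.4 CPM in the others. The sources used here do not give whether those tags lie inside the deleted exons. Of the early KIC epithelial cells, 349 of 355 lay in cluster 10, which also held 9 cells of normal pancreas, while those of the late tumours lay in cluster 4. Duct cells and tumour cells of early KIC cannot be told apart. The mesenchymal tumour cluster held 245 cells of late KIC, 9 of late KPfC, 1 of early KIC and 1 of late KPC. Levels of mesenchymal cells are given for late KIC only, and the few cells of the other libraries count in their joined tumour classes.

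In each of the 3 late tumours class I genes took a smaller share of UMIs in tumour cells than in macrophages and T cells. The gap was wider for the immunoproteasome and peptide pump genes, summed, than for the chains. CPM gives no amount per cell, and depth differed between classes. In late KIC the median was 20988 UMIs in tumour cells and 7256 in macrophages. The summed CPM of Tap1, Tap2, Psmb8 and Psmb9 was 20.1 in epithelial tumour cells of late KIC, 23.4 in late KPfC, 5.71 in late KPC and 4.35 in mesenchymal tumour cells. Macrophages of the same libraries had 303, 292 and 206 CPM. Epithelial cells of early KIC stood apart from the late tumours with 147 CPM, beside 205 CPM in macrophages of that library. For the chains H2-K1, H2-D1 and B2m summed, epithelial cells had 2372 CPM in early KIC and 1123, 1002 and 765 CPM in late KIC, late KPfC and late KPC. Macrophages had 5192 CPM of the chains in early KIC and 3984, 5007 and 3548 CPM in those late tumours. Mesenchymal tumour cells had 1053 CPM of the chains, within the range of the late epithelial cells.

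**Figure D1:**
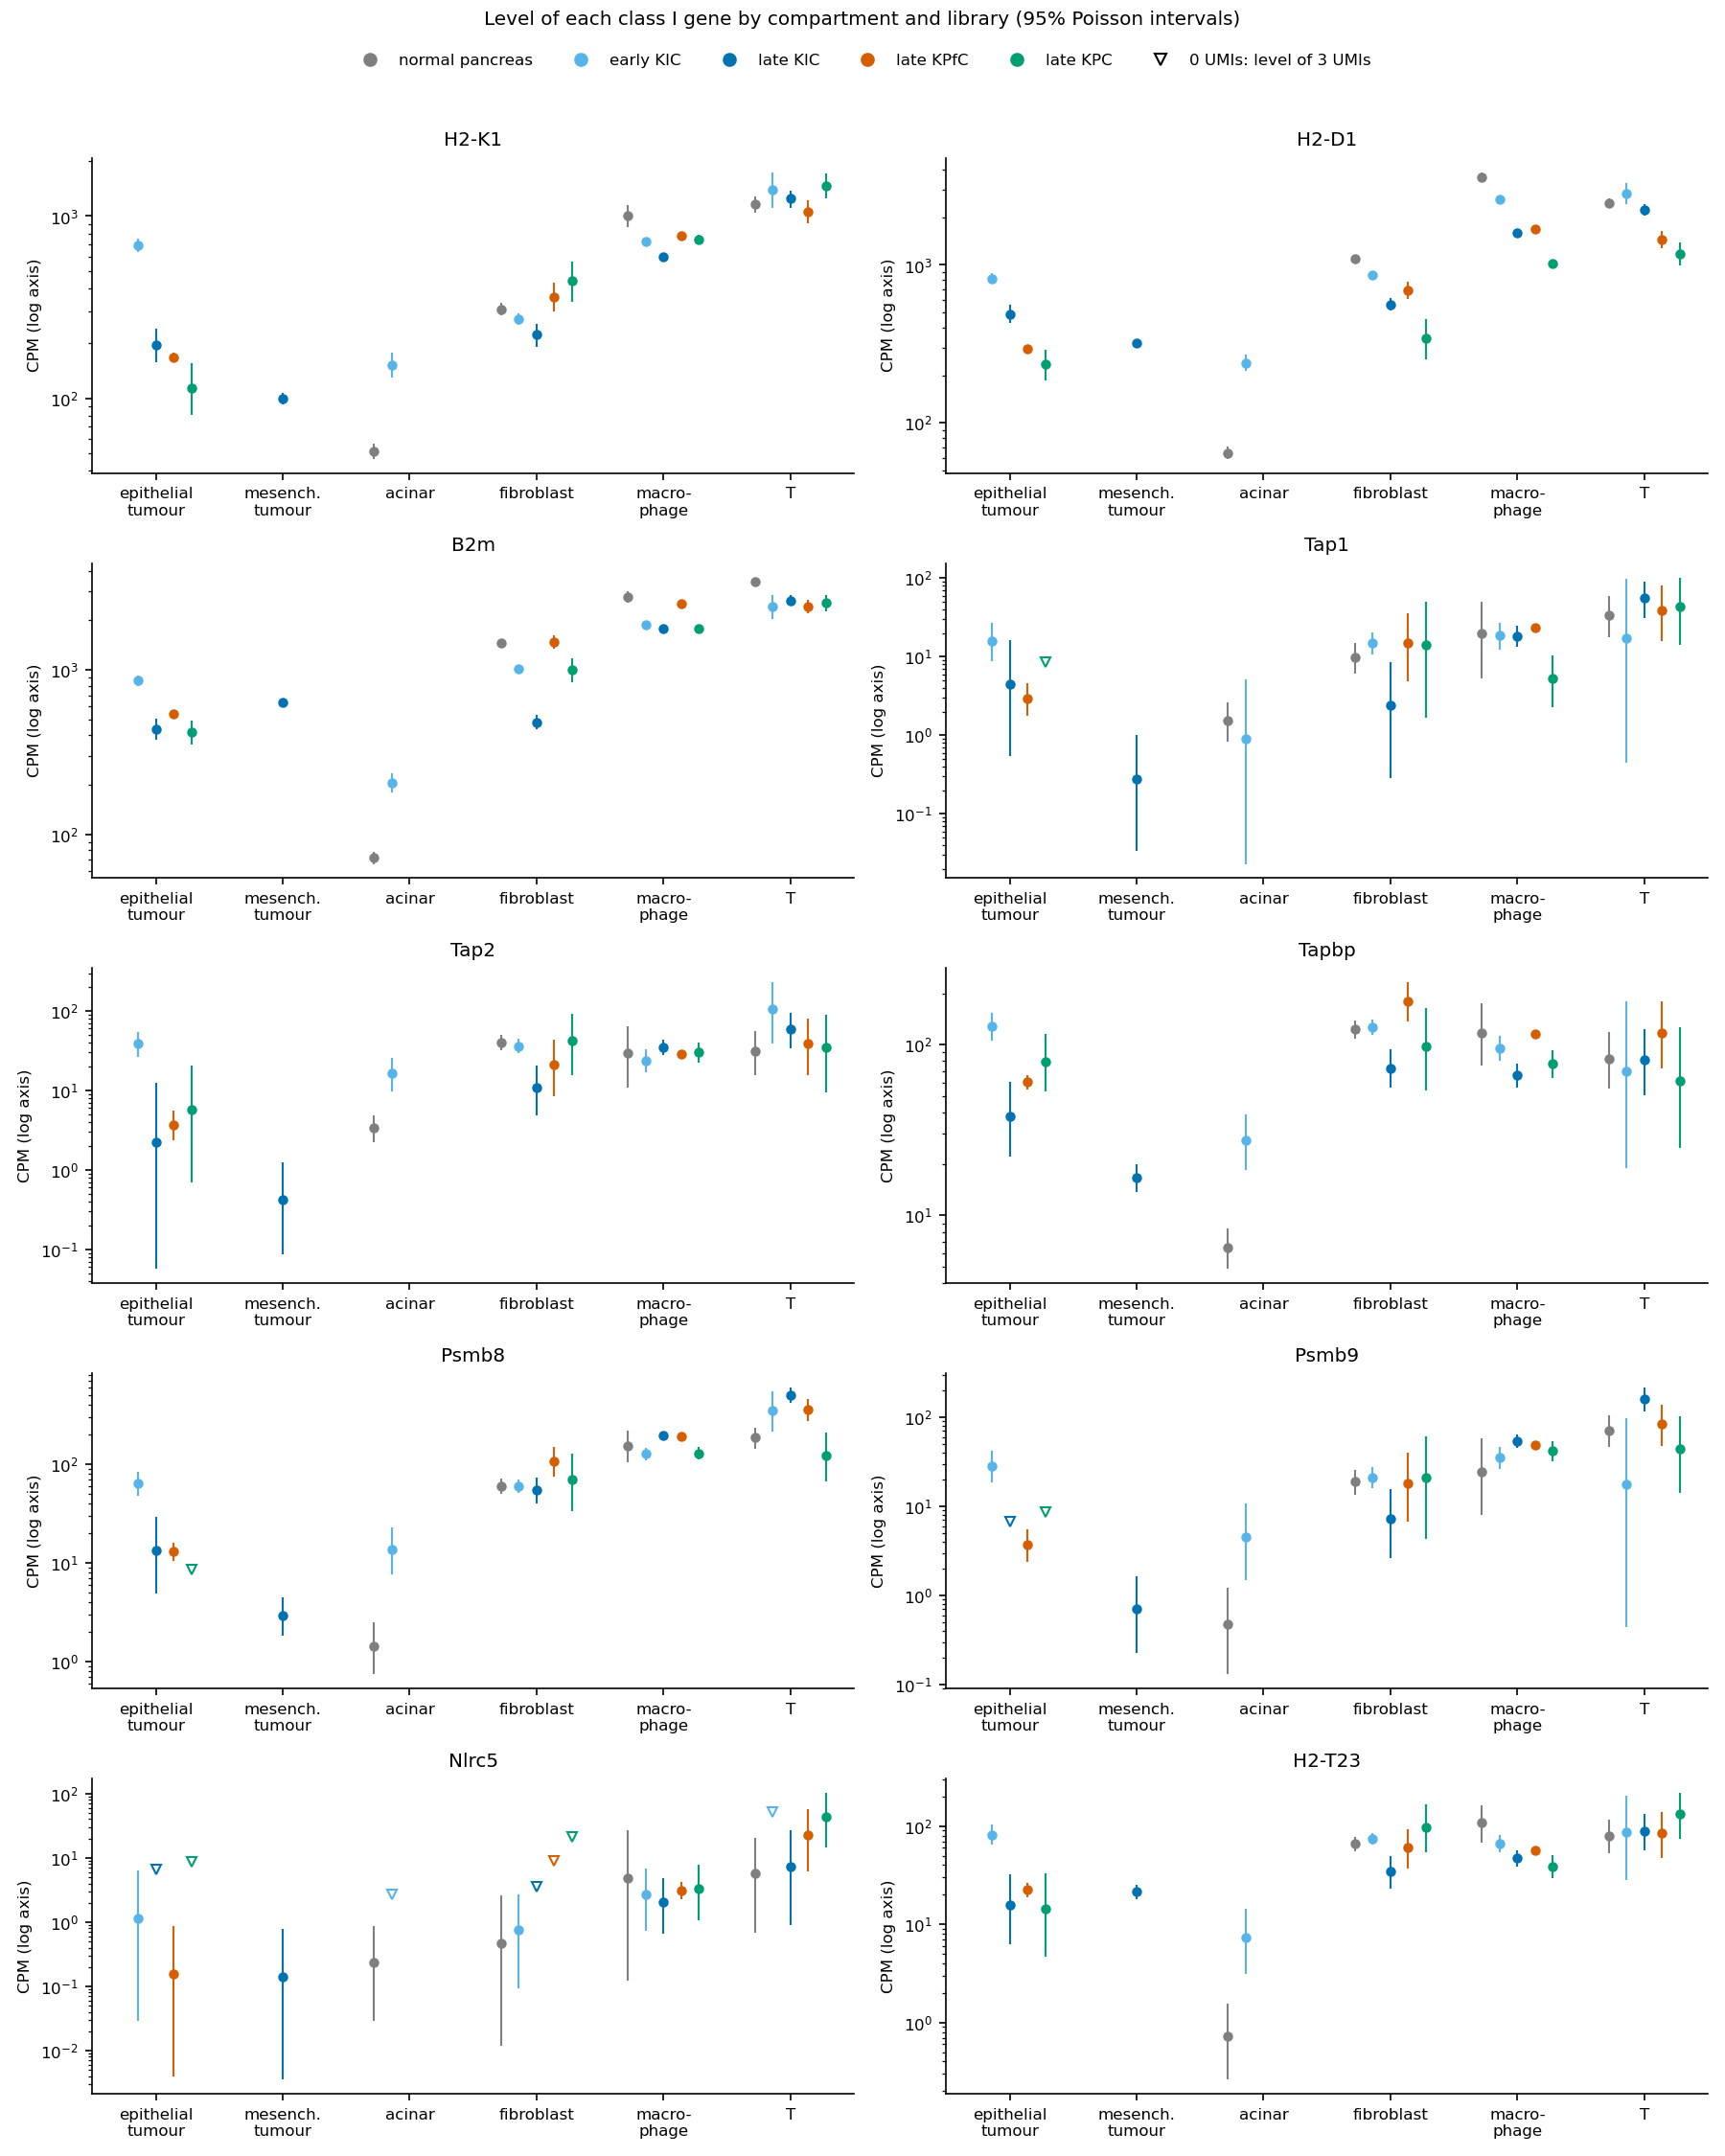
Level of each of the 10 genes (CPM, log axis) by compartment (horizontal axis) and library (colour); points are summed UMIs scaled to the class total, bars are exact Poisson 95% intervals, and an open triangle marks the level of 3 UMIs where none was seen. The late tumour classes and normal acinar cells sit lowest for Psmb8 and macrophages and T cells highest: 13 CPM in epithelial cells of late KPfC against 191 and 353 CPM.

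H2-K1, a classical heavy chain, was at 692 CPM (638 to 749) in epithelial cells of early KIC; ranges in parentheses are 95% intervals that cover counting error only. In late tumours it was at 196 (157 to 242), 168 (159 to 179) and 114 (81.6 to 156) CPM in epithelial cells of late KIC, late KPfC and late KPC, and at 99.6 (92.4 to 107) CPM in mesenchymal cells. Early KIC lay above every late tumour class. Epithelial cells of late KIC and late KPfC had overlapping intervals, as did epithelial cells of late KPC and mesenchymal cells, and the former pair lay above the latter. Macrophages had 1006 CPM in normal pancreas, 721 in early KIC, 594 in late KIC, 778 in late KPfC and 742 in late KPC. T cells had 1059 to 1468 CPM, and every T cell value lay above every macrophage value. Fibroblasts lay below both, at 223 to 441 CPM. Acinar cells had 51.4 CPM (46.7 to 56.5) in normal pancreas and 153 CPM (130.3 to 178) in early KIC.

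H2-D1, the other classical heavy chain, was also lower in tumour and acinar cells than in macrophages and T cells of the same library. Epithelial cells had 821 CPM in early KIC, 490.3 in late KIC, 294 in late KPfC and 234 in late KPC, and mesenchymal cells 322 CPM. Macrophages ranged from 1015 CPM in late KPC to 3594 in normal pancreas and T cells from 1178 in late KPC to 2831 in early KIC. In fibroblasts late KPC was again the lowest, at 343 CPM, and normal pancreas the highest, at 1092 CPM.

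B2m, the light chain that every class I heavy chain needs, was closer between the tumour classes. Epithelial cells had 859.8 CPM (799.6 to 923) in early KIC, 437 CPM in late KIC, 539.7 in late KPfC and 417 in late KPC. Mesenchymal cells had 632 CPM (614 to 651), above the epithelial cells of the same library. Macrophages ranged from 1782 to 2769 CPM and T cells from 2412 to 3454 CPM, so every immune value exceeded every tumour value. Acinar cells had the lowest CPM, 71.9 in normal pancreas and 206 in early KIC. Their totals include digestive-enzyme transcripts, which lower the CPM of every other gene by an amount not given here.

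H2-T23, the non-classical heavy chain, was at 81.9 CPM (64.1 to 103) in epithelial cells of early KIC. Late tumour classes had 14.3 to 22.4 CPM in epithelial and 21.5 CPM in mesenchymal cells, with overlapping intervals. Macrophages ranged from 39.01 CPM in late KPC to 108 in normal pancreas, and early KIC epithelial cells lay inside the macrophage range. Normal acinar cells had 6 UMIs in 1415 cells.

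Barcodes filled with haemoglobin transcripts, which can hold RNA from outside cells beside that of red cells, had class I UMIs as well. In late KIC they had 137 CPM (102 to 181) of H2-K1 and 358 CPM (299.9 to 424) of H2-D1, neither below the mesenchymal tumour cells of that library. In late KPfC they had 75.8 CPM (54.2 to 103) of H2-K1, below its epithelial tumour cells, and in late KPC 122 CPM (62.9 to 213), overlapping them. For B2m they had 417, 290.1 and 386 CPM in late KIC, late KPfC and late KPC. The part of free RNA in the tumour levels was not tested, and levels that overlap this background are not to be read as more than it. The CPM of these barcodes is divided by totals that include haemoglobin, so a level above theirs is not thereby above free RNA. Depth differs too, with medians in late KIC of 6901 UMIs in these barcodes and 23792 in mesenchymal tumour cells. Leaving Nlrc5 aside, the late tumour classes lay above these barcodes with separate intervals for H2-K1, H2-D1 and B2m in epithelial cells of late KPfC, H2-D1 in epithelial cells of late KIC and B2m in its mesenchymal cells. Every other late tumour level overlapped the background of its library, except Psmb8 in mesenchymal cells, which lay below it.

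The peptide pump was sparse in every tumour class. Tap1 gave 14 UMIs, or 15.9 CPM (8.71 to 26.7), in epithelial cells of early KIC and 19 UMIs, or 2.94 CPM (1.77 to 4.59), in late KPfC. It gave 2 UMIs in epithelial cells of late KIC, 2 in mesenchymal cells and 0 in late KPC, where a count of 0 allows up to 8.56 CPM (3 UMIs of the total). Macrophages had 18.6 CPM in early KIC, 18.4 in late KIC, 23.6 in late KPfC and 5.29 in late KPC. The early KIC tumour cells lay near the macrophages of their library, and in late KPC the depth could not separate the classes. In T cells the range was 17.5 to 55.3 CPM, with 1 to 15 UMIs per library.

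Tap2, its partner, gave 34 UMIs, or 38.7 CPM (26.8 to 54.03), in epithelial cells of early KIC and 24, or 3.71 CPM (2.38 to 5.53), in late KPfC. Only 1 and 2 UMIs were seen in epithelial cells of late KIC and late KPC, and 3 in the 245 mesenchymal cells, 0.421 CPM. Macrophages lay in a narrow range of 23.96 to 35.1 CPM over the 5 libraries. Fibroblasts ran from 10.7 CPM in late KIC to 42.04 in late KPC.

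Tapbp, the loading factor tapasin, was closer between tumour cells and macrophages of early KIC and late KPC than in the other libraries. Epithelial cells had 128 CPM (106 to 154) in early KIC and 37.9 CPM (22.1 to 60.7) in late KIC. In late KPfC they had 60.2 CPM (54.4 to 66.5), and 79.9 CPM (53.1 to 116) in late KPC. Macrophages of the same libraries had 95.8, 66.2, 116 and 77.3 CPM. In late KPC the interval of epithelial cells thus held the macrophage level. Mesenchymal cells were the lowest tumour class, at 16.6 CPM (13.7 to 19.8), and normal acinar cells had 6.46 CPM.

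Psmb8, the immunoproteasome subunit that replaces Psmb5, spanned a wide range. Epithelial cells had 63.7 CPM (48.1 to 82.7) in early KIC, 13.4 CPM (4.91 to 29.1) in late KIC and 13 CPM (10.4 to 16.1) in late KPfC. No Psmb8 UMI was seen in the 58 epithelial cells of late KPC, which allows up to 8.56 CPM, and mesenchymal cells of late KIC had 2.95 CPM (1.82 to 4.503). Macrophages had 152 CPM in normal pancreas, 127 in early KIC, 196 in late KIC, 191 in late KPfC and 128 in late KPC. T cells had 185 CPM in normal pancreas, 349.5 in early KIC, 502 in late KIC, 353 in late KPfC and 123 in late KPC. All of these immune values lay above all tumour values. Haemoglobin-filled barcodes had 21.6 CPM in late KIC and 22.8 CPM in late KPfC, so the late tumour classes of those libraries were at or under that level.

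Psmb9, which replaces Psmb6, followed the same pattern. It was at 28.4 CPM (18.4 to 41.97) in epithelial cells of early KIC and 3.71 CPM (2.38 to 5.53) in late KPfC, from 25 and 24 UMIs. It was not seen in epithelial cells of late KIC or late KPC, which allows up to 6.69 and 8.56 CPM, and gave 5 UMIs in mesenchymal cells. Macrophages had 24.6 CPM in normal pancreas, 35.3 in early KIC, 53.9 in late KIC, 48.2 in late KPfC and 41.6 in late KPC, and the normal pancreas value, from 5 UMIs, overlapped that of early KIC epithelial cells.

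The constitutive subunits did not share this range. Summed, Psmb5, Psmb6 and Psmb7 were at 648, 622, 629 and 514 CPM in epithelial cells of early KIC, late KIC, late KPfC and late KPC and 678 CPM in mesenchymal cells. Macrophages had 299.5 to 676 CPM, so the tumour classes did not lie below the macrophages as a group. Psmb10, the remaining interferon-induced catalytic subunit, was at 104 CPM in epithelial cells of early KIC. It was at 26.8, 33.9 and 25.7 CPM in those of late KIC, late KPfC and late KPC and 24.3 CPM in mesenchymal cells, which placed early KIC above the late classes as for Psmb8 and Psmb9.

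**Figure D2:**
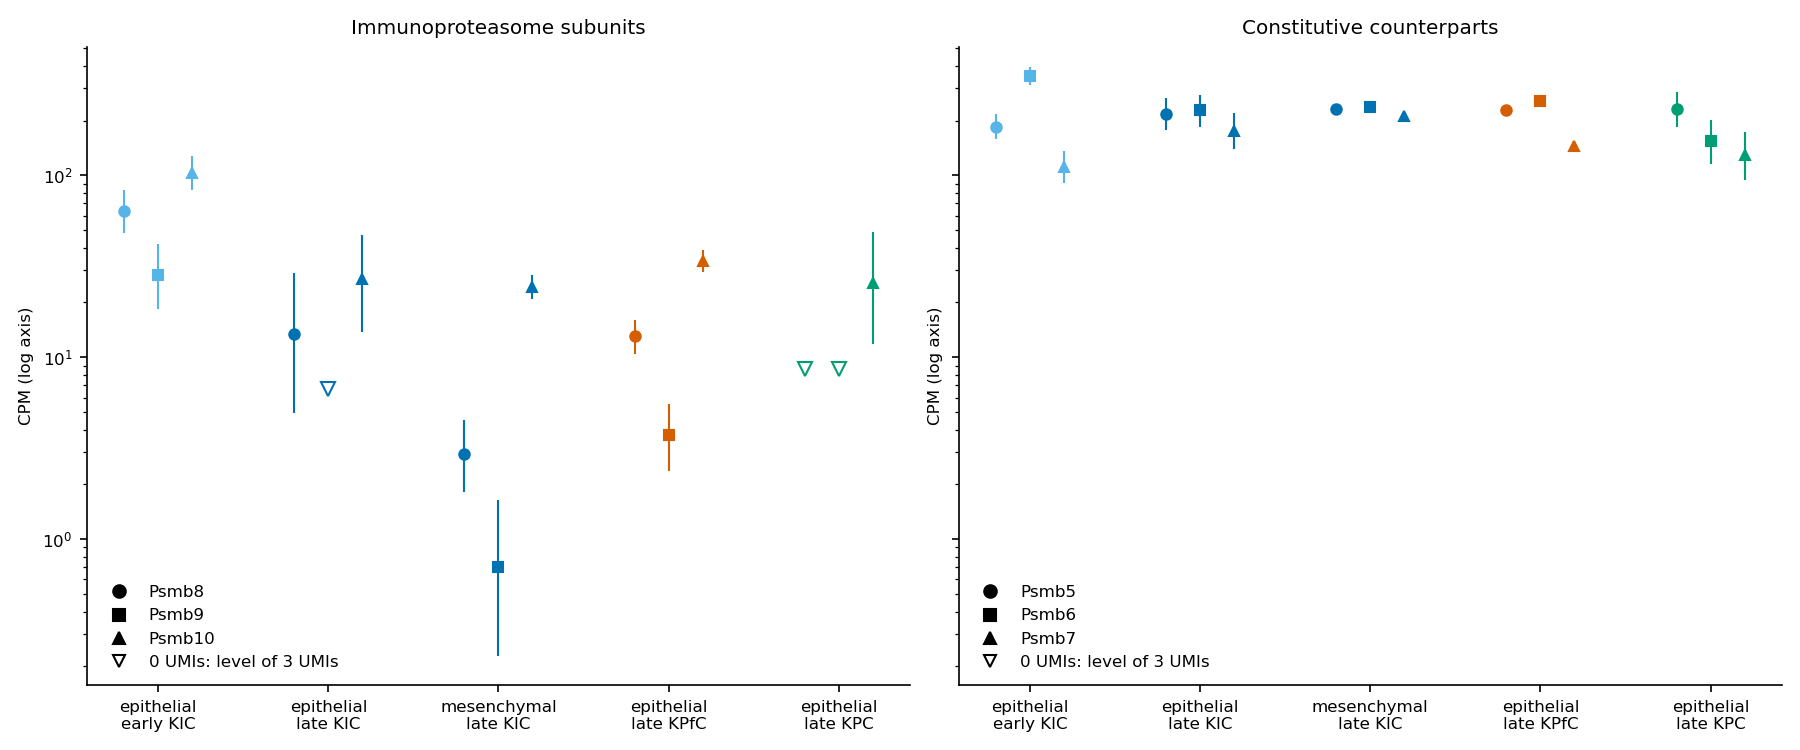
Level (CPM, log axis) of the interferon-induced subunits Psmb8, Psmb9 and Psmb10 and of their constitutive counterparts Psmb5, Psmb6 and Psmb7 in the 5 tumour classes; points are summed UMIs scaled to the class total, bars are exact Poisson 95% intervals. The induced subunits spread widely, with Psmb8 from 2.95 to 63.7 CPM where it was seen, while the constitutive ones stay together, summing to 514 to 678 CPM.

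Nlrc5, the coactivator, was too sparse to compare. It gave at most 1 UMI in each tumour class, 2 in normal acinar cells and at most 2 in fibroblasts of any library. Macrophages gave 1, 4, 5, 44 and 5 UMIs in normal pancreas, early KIC, late KIC, late KPfC and late KPC, and T cells 0 to 5. Where depth was greatest, in macrophages of late KPfC, this was 3.103 CPM (2.25 to 4.17), and dendritic cells of that library had 20.3 CPM (11.6 to 32.9).

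Within each library the tumour classes were joined and set against macrophages, and a gene was called where it had at least 20 UMIs over both sides and differed at least 2-fold. With 1 library a group there is no test, and these comparisons describe the libraries. In early KIC 2 of 9 measured genes were lower in tumour cells, where 13.4% of all measured genes were lower, and 0 were higher, against 40.8%. In late KIC 9 of 9 were lower, against 14.6% of all genes, and 0 higher, against 33.6%. In late KPfC 9 of 10 were lower, against 16.0%, and 0 higher, against 35.6%. In late KPC 7 of 8 were lower, against 17.0%, and 0 higher, against 25.6%. The median log2 ratio of the measured members was -0.23, -2.50, -2.68 and -2.21 in these 4 libraries, beside 0.72, 0.49, 0.56 and 0.26 over all measured genes.

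In early KIC H2-K1 differed between tumour cells and macrophages by less than counting error, with a ratio of 0.956 (0.864 to 1.06), while H2-D1 was 3.14-fold lower (2.900 to 3.403) and B2m 2.19-fold lower (2.02 to 2.38) in tumour cells. The processing genes there lay within 2-fold, from Psmb8, 1.97-fold lower (1.46 to 2.697), to Tap2, 1.61-fold higher (0.975 to 2.64). In late KIC Psmb8 was at 3.56 CPM in tumour cells against 196 in macrophages, 54.9-fold lower (37.2 to 84.2). Psmb9 was 81.7-fold lower (34.1 to 256), Tap2 66.5-fold lower (25.1 to 249.7) and Tap1 34.8-fold lower (12.7 to 133), from 5, 4 and 4 tumour UMIs. The chains differed less, with H2-K1 5.64-fold lower (5.17 to 6.16), H2-D1 4.84-fold lower (4.61 to 5.09) and B2m 2.87-fold lower (2.76 to 2.99).

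In late KPfC the immunoproteasome genes again had wider gaps than the chains, while the intervals of the pump genes overlapped that of H2-D1. Gaps of the immunoproteasome and pump genes were narrower than in late KIC, where 245 of the 281 tumour cells were mesenchymal. The 36 epithelial cells of late KIC had 13.4 CPM (4.91 to 29.1) of Psmb8, from 6 UMIs, beside 13 CPM in those of late KPfC. Against macrophages of late KPfC, Psmb8 was 13.7-fold lower (11.1 to 16.99) and Psmb9 11.9-fold lower (8.08 to 18.1). Tap2 was 7.94-fold lower (5.26 to 12.5) and Tap1 7.45-fold lower (4.79 to 12.2). The chains were 4.36-fold lower (4.105 to 4.63) for H2-K1, 5.505-fold lower (5.26 to 5.76) for H2-D1 and 4.31-fold lower (4.17 to 4.45) for B2m. Nlrc5 was 20.6-fold lower (3.51 to 832) from 1 tumour UMI. Tapbp was the gene within 2-fold, 1.896-fold lower (1.700 to 2.12). In late KPC, with 59 tumour cells, no UMI of Psmb8 or Psmb9 was seen in tumour cells, which puts them at least 15.2-fold lower and at least 4.94-fold lower with the 0 set to 3 UMIs. H2-K1 was 6.598-fold lower there, and H2-T23, 2.77-fold lower (1.12 to 8.86), rested on 5 tumour UMIs and stood on the other side of 1, at a log2 of 0.35, by the mean of the cells' own CPM. Tapbp lay within 2-fold in late KPC as well, 1.02-fold higher (0.648 to 1.55), with an interval that holds 1.

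**Figure D3:**
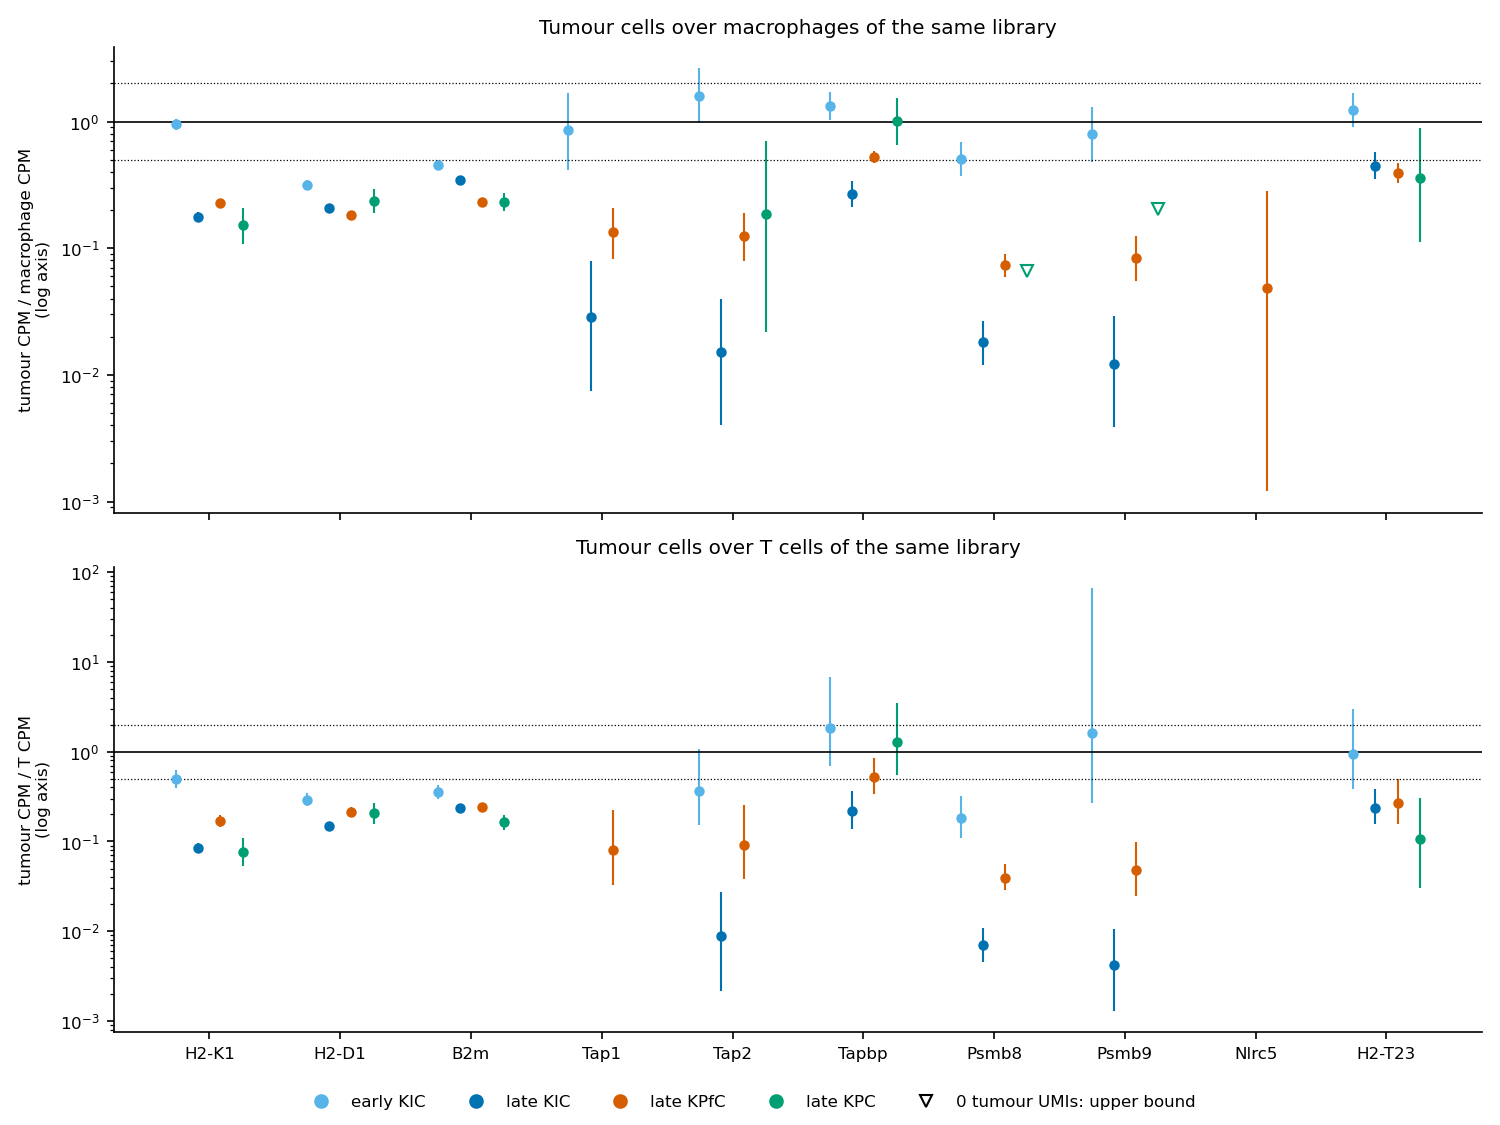
Ratio of the CPM of tumour cells to that of macrophages (one panel) and of T cells (the other panel) of the same library, on a log axis, for the measured genes; bars are exact 95% intervals, dotted lines mark 0.5 and 2, and an open triangle is an upper bound where tumour cells had no UMI. Against macrophages the 9 measured genes of late KIC all lie below 0.5, while 7 of the 9 of early KIC lie within the dotted lines.

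Immune-cell transcripts were found in the tumour classes. The summed level of Ptprc, Tyrobp, Fcer1g, Cd52 and Cd3e was 158, 91.4, 374 and 74.2 CPM in epithelial cells of early KIC, late KIC, late KPfC and late KPC and 69.9 CPM in mesenchymal cells, beside 3872 to 5952 CPM in macrophages. The macrophage gene Lyz2 was at 296, 82.5, 520.3 and 79.9 CPM in the epithelial cells in that order. With every tumour cell holding any of the summed markers left out, 269, 87, 35 and 51 tumour cells remained in early KIC, late KIC, late KPfC and late KPC. Macrophages with Epcam or Krt19 UMIs were left out as well, and 740, 242, 1104 and 515 macrophages remained. Then 2 of 9, 8 of 9, 8 of 9 and 7 of 8 measured genes were lower than in macrophages. The share over all genes was not computed for these cells. H2-T23 was then the gene within 2-fold in late KIC, and Psmb8 had log2 ratios of -4.88 in late KIC and -3.06 in late KPfC.

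Tumour cells were then set against T cells of the same library. In early KIC 5 of 8 measured genes were lower in tumour cells, against 14.0% of all genes, and 0 higher, against 23.2%. In late KIC it was 8 of 8, against 18.8%, and 0 higher, against 23.9%. In late KPfC it was 8 of 9, against 15.6%, and 0 higher, against 23.1%. In late KPC it was 4 of 5, against 10.8%, and 0 higher, against 39.1%. Psmb8 was 5.42-fold lower (3.08 to 9.16) in tumour cells of early KIC, 141-fold lower (92.7 to 221) in late KIC and 25.2-fold lower (18.01 to 35.1) in late KPfC. H2-K1 was 2.03-fold lower, 11.8-fold lower, 5.94-fold lower and 13.1-fold lower in early KIC, late KIC, late KPfC and late KPC. Only 26 and 27 T cells stand behind early KIC and late KIC, and the T cell class was 1 cluster in which natural killer markers also scored.

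Other genes of the pathway were counted in the same tumour-to-macrophage comparison. Of the other class I heavy chain genes, 3 of 7 measured were lower in early KIC, 5 of 7 in late KIC, 5 of 8 in late KPfC and 3 of 4 in late KPC, and 1 was higher, in early KIC. H2-Q7 was at 4.09 against 47.8 CPM, 11.7-fold lower (7.802 to 17.96) in tumour cells of late KIC. Genes of peptide supply and loading, such as the proteasome activator Psme1 and the chaperone Calr, mostly lay within 2-fold: 0 of 8, 2 of 9, 1 of 9 and 2 of 8 were lower in early KIC, late KIC, late KPfC and late KPC, and 1 was higher, in early KIC. Psmb10, the remaining interferon-induced subunit, was among them in late KIC, at 24.4 against 89.8 CPM, 3.68-fold lower (3.01 to 4.498). Of 8 constitutive proteasome genes, 0 were lower in any of the 4 libraries and 1 was higher, in early KIC. Of the regulators of class I genes, 1 of 12, 2 of 12, 1 of 13 and 1 of 11 were lower in the same order, and 8, 1, 2 and 2 were higher. That list joins activators and repressors, from Rfx5 and Rela to Ezh2, Eed and Suz12, so its counts have no common direction. The shares over all measured genes were 13.4%, 14.6%, 16.0% and 17.0% lower and 40.8%, 33.6%, 35.6% and 25.6% higher.

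Interferon genes were counted in the same way. Interferon response genes were lower in tumour cells for 7 of 13 measured in early KIC, 12 of 14 in late KIC, 11 of 20 in late KPfC and 3 of 7 in late KPC, and 1 was higher in early KIC and 1 in late KPfC. Isg15, an interferon-induced ubiquitin-like protein, was at 3.96 against 247 CPM, 62.3-fold lower (43.2 to 93.1) in late KIC. Interferon signalling genes were lower for 6 of 14, 8 of 15, 5 of 15 and 4 of 11, and 3 were higher in early KIC and 1 in late KPC. Of all measured genes 13.4%, 14.6%, 16.0% and 17.0% were lower in the 4 libraries, and 40.8%, 33.6%, 35.6% and 25.6% higher. Class II genes, expressed mainly by professional antigen-presenting cells, were lower for all those measured, 6 in late KPC and 7 in each of the others.

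In late KIC the mesenchymal cells were set against the 36 epithelial tumour cells. Of 6 measured members 2 were at least 2-fold lower in mesenchymal cells, against 12.3% of all genes, and 0 higher, against 11.9%. These were Psmb8, 4.54-fold lower (1.499 to 11.6) from 6 epithelial UMIs, and Tapbp, 2.29-fold lower (1.29 to 3.82). H2-K1 was just inside the limit, 1.97-fold lower (1.56 to 2.46), and B2m stood on the other side of 1, 1.45-fold higher (1.25 to 1.68). Median depth was 23792 UMIs in mesenchymal and 9792.5 in epithelial cells. The immune markers were at 69.9 and 91.4 CPM, and their part was not tested. Thinned to 1000 UMIs per cell, 3 members were measured and 0 were 2-fold apart.

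Late KIC was set beside early KIC, the same model at an older age. Over all tumour cells 7 of 8 measured members were at least 2-fold lower in late KIC, against 27.5% of all genes, and 0 higher, against 13.5%. Because mesenchymal cells are part of that difference, epithelial cells were also compared alone: 6 of 8 were lower, against 25.2%, and 0 higher, against 9.36%. Among epithelial cells H2-T23 was 5.25-fold lower (2.42 to 13.5), Psmb8 4.76-fold lower (2.06 to 13.5), H2-K1 3.52-fold lower (2.81 to 4.46) and Tapbp 3.39-fold lower (2.03 to 6.03). Psmb9, with no UMI in late KIC, was at least 4.25-fold lower with the 0 set to 3 UMIs, and Tap2, with 1 UMI there, 17.4-fold lower (2.91 to 705). The genes within 2-fold were H2-D1, 1.68-fold lower (1.44 to 1.96), and B2m, 1.97-fold lower (1.68 to 2.31). The median log2 ratio of the measured members was -1.95 beside -0.31 over all genes.

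The other lists were counted in the same comparison, where 25.2% of all genes were lower and 9.36% higher. Of regulators of class I genes, a list that mixes activators and repressors, 4 of 10 measured were lower. Of peptide supply and loading genes 2 of 7 were, near the share over all genes. Irf1, an interferon-induced transcription factor, was at 13.4 against 147 CPM, 10.97-fold lower (4.91 to 30.4) in epithelial cells of late KIC relative to early KIC, and Psmb10 at 26.8 against 104 CPM, 3.87-fold lower (2.11 to 7.76). Of other class I genes 5 of 5 measured were lower, of interferon response genes 4 of 5, of interferon signalling genes 3 of 9 with 1 higher, and of constitutive proteasome genes 0 of 8. The higher one was Ifngr1, a chain of the interferon gamma receptor, at 145 against 69.4 CPM, 2.09-fold higher (1.45 to 3.01). Different clusters hold the epithelial cells of the 2 libraries, cluster 10 in early KIC and cluster 4 in late KIC, and median depth was 1979 against 9792.5 UMIs per cell. Immune markers were at 158 CPM in early KIC and 91.4 CPM in late KIC, and the acinar enzyme Prss2 was at 6369 CPM in the former. Their part in the difference was not tested.

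The 3 late tumours were then compared with each other. Over all tumour cells 5 of 9 measured members were lower in late KIC than in late KPfC, against 16.2% of all genes, and 0 higher, against 9.46%. These were Tap2, 6.85-fold lower (2.35 to 27.1), Psmb9, 6.16-fold lower (2.34 to 20.5), and Tap1, 5.99-fold lower (2.02 to 24), from 4, 5 and 4 UMIs in late KIC. The others were Psmb8, 3.93-fold lower (2.54 to 6.28), and Tapbp, 3.43-fold lower (2.82 to 4.201). Among epithelial cells alone 0 of 8 were called 2-fold apart, beside 18.4% of all genes in either direction. Tap1, Tap2 and Psmb8 rested there on 2, 1 and 6 UMIs of late KIC, with intervals that reach past 2-fold both ways. Psmb9 was not measured. Of the 281 tumour cells of late KIC 245 were mesenchymal, and their part in the difference was not tested. With tumour cells that hold an immune marker left out, 5 members were measured and 1 was lower, and with cells thinned to 1000 UMIs 2 of 5. Between late KPC and late KPfC 0 of 7 measured members were called 2-fold apart over all tumour cells, beside 24.2% of all genes. Among epithelial cells it was 0 as well, beside 24.2%. Psmb8 had 0 UMIs in tumour cells of late KPC, so its ratio of 0.602 is an upper bound and does not exclude a 2-fold difference. Tap2, 1.555-fold higher (0.178 to 6.265), and H2-T23, 1.61-fold lower (0.674 to 5.02), rested on 2 and 5 UMIs there. Their intervals reach past 2-fold. With cells holding markers of another class left out, 2 of 4 members were lower in late KPC. Under the stricter cell filter, at clustering resolution 2 or with thinned cells, 1 was, so the count of 0 did not hold. H2-K1 was 1.59-fold lower (1.16 to 2.23) in tumour cells of late KPC, and Tapbp 1.29-fold higher (0.845 to 1.89). Strain, age and sex differ between those groups and cannot be told apart from the model.

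Acinar cells, which make digestive enzymes, had low class I CPM in normal pancreas and higher CPM in early KIC. Enzyme transcripts count in the totals, so these values are shares and not amounts per cell. H2-K1 was at 51.4 CPM in normal pancreas and 153 in early KIC, 2.97-fold higher (2.47 to 3.56). All 6 measured members were at least 2-fold higher in early KIC, where 56.7% of all genes were, and 0 lower, against 1.05%. H2-D1 was 3.71-fold higher (3.19 to 4.31), B2m 2.86-fold higher (2.44 to 3.34), Tapbp 4.24-fold higher (2.62 to 6.75), Tap2 4.91-fold higher (2.56 to 9.197) and Psmb8 9.55-fold higher (4.17 to 22.3). Tap1, Psmb9, Nlrc5 and H2-T23 had too few UMIs to be measured. With ratios centred on the median of all genes, a log2 of 1.14, Tap2 and Psmb8 were still at least 2-fold higher and the other 4 were not. Summed immune markers were at 19.02 CPM in acinar cells of normal pancreas and 124 CPM in early KIC, and their part was not tested. Different clusters hold the acinar cells of the 2 libraries, 1392 of 1415 in cluster 0 in normal pancreas and 437 in cluster 8 in early KIC. With acinar cells holding such a marker left out, 5 of 5 measured members were higher.

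Fibroblasts, the matrix-forming cells of the stroma, had members within 2-fold between normal pancreas and early KIC. Of 9 measured members 0 were 2-fold apart, beside 13.0% of all genes in either direction, and the ratios ran from B2m, 1.43-fold lower (1.35 to 1.504), to Tap1, 1.53-fold higher (0.8804 to 2.73). In late KIC, with 49 fibroblasts, 5 of 9 measured members were at least 2-fold lower than in early KIC, against 18.8% of all genes, and 0 higher, against 6.88%. These were Tap1, 6.34-fold lower (1.64 to 54.2), from 2 late UMIs, Tap2, 3.38-fold lower (1.71 to 7.62), Psmb9, 2.96-fold lower (1.28 to 8.405), H2-T23, 2.15-fold lower (1.45 to 3.300), and B2m, 2.12-fold lower (1.91 to 2.36). Psmb8 was not among them, at 54.9 against 60.2 CPM, nor H2-K1, at 223 against 273 CPM. Irf1 was at 37 against 244 CPM, 6.597-fold lower (4.601 to 9.79), and 9 of 16 measured interferon response genes were lower. Clusters 17 and 24 held most fibroblasts of normal pancreas, 1 and 7 those of early KIC and 14 those of late KIC. Thinned to 1000 UMIs, 3 of 7 members were lower and Psmb9 and H2-T23 stood on the other side of 1, centred on all genes 3 of 9, and with the cluster of mesothelial genes joined 2 of 9.

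Cells of the cluster with both fibroblast and mesothelial markers, kept apart from the fibroblasts, were high in late KPfC. B2m was at 3079 CPM there, H2-K1 at 971 and Psmb8 at 254 CPM, beside 1482, 361 and 106 CPM in the 23 fibroblasts of that library. Of its 160 cells, 6 had none of the immune markers, so their part in these levels was not tested.

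Macrophage levels lay mostly within 2-fold between libraries. Early KIC and normal pancreas had 0 of 9 measured members 2-fold apart, beside 23.4% of all genes, late KIC and early KIC 0 of 9, beside 19.1%, and late KIC and late KPfC 0 of 10, beside 16.6%. Late KPC and late KPfC had 1 of 10 lower, against 14.2%, and 0 higher, against 9.95%. That gene was Tap1, 4.45-fold lower (2.23 to 10.4) from 8 UMIs in late KPC. In the same pair 14 of 19 measured interferon response genes were lower in late KPC and 1 higher, with a median log2 ratio of -1.88 beside -0.53 for the members and 0.03 for all genes. Between macrophage clusters of single libraries H2-K1 ran from 566.0 CPM in cluster 3 of late KIC to 1085 in cluster 26 of late KPfC, and Psmb8 from 61.3 CPM in cluster 16 of early KIC to 276 in cluster 6 of late KPfC. Different clusters hold most macrophages of each library: 5 and 16 in early KIC, 3 and 6 in late KIC, 2, 6 and 9 in late KPfC, and 3 and 23 in late KPC.

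T cells of late KPC and late KPfC had 1 of 7 measured members at least 2-fold lower in late KPC, against 18.8% of all genes, and 0 higher, against 10.8%. Psmb8 was that gene, 2.87-fold lower (1.59 to 5.55), while H2-K1 was 1.39-fold higher (1.12 to 1.72). Dendritic cells, the professional antigen-presenting cells, had 253 to 816 CPM of Psmb8 and 74.5 to 124 CPM of Tap1 over the 5 libraries, above macrophages of the same library in each.

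Shares of cells with a UMI were compared at 1000 UMIs per cell, since median depth differed between the classes. H2-K1 was seen in 70.1%, 75%, 72.2% and 37.9% of epithelial cells of early KIC, late KIC, late KPfC and late KPC with all UMIs, at median depths of 1979, 9792.5, 10809.5 and 2685.5. At 1000 UMIs the shares were 43.4% (38.2 to 48.7), 11.1% (3.11 to 26.1), 14.6% (11.6 to 18.1) and 19.6% (9.82 to 33.1), so that early KIC lay above the others. Of the late KPC cells 51 of 58 were deep enough. Mesenchymal cells had 11.8% (8.07 to 16.6) at 1000 UMIs and 76.7% with all. Macrophages had 39.6% to 63.3% and T cells 59.3% to 69.2% at 1000 UMIs, the late KPC value from 40 of 96 T cells. Haemoglobin-filled barcodes had 6.604% to 13.7%, which the late tumour shares overlap.

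For B2m the thinned shares of tumour cells were nearer to each other, 37.2% to 52.1% of epithelial and 46.5% of mesenchymal cells, beside 76.7% to 95.9% of macrophages. At least 1 UMI of Tap1, Tap2, Psmb8 or Psmb9 was found at 1000 UMIs in 14.4% of epithelial cells in early KIC, 3.09% in late KPfC, 2.78% in late KIC and 1.96% in late KPC. In mesenchymal cells it was 0 of 245. Macrophages had 16.9% to 25.7% and T cells 20.2% to 50%.

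**Figure D4:**
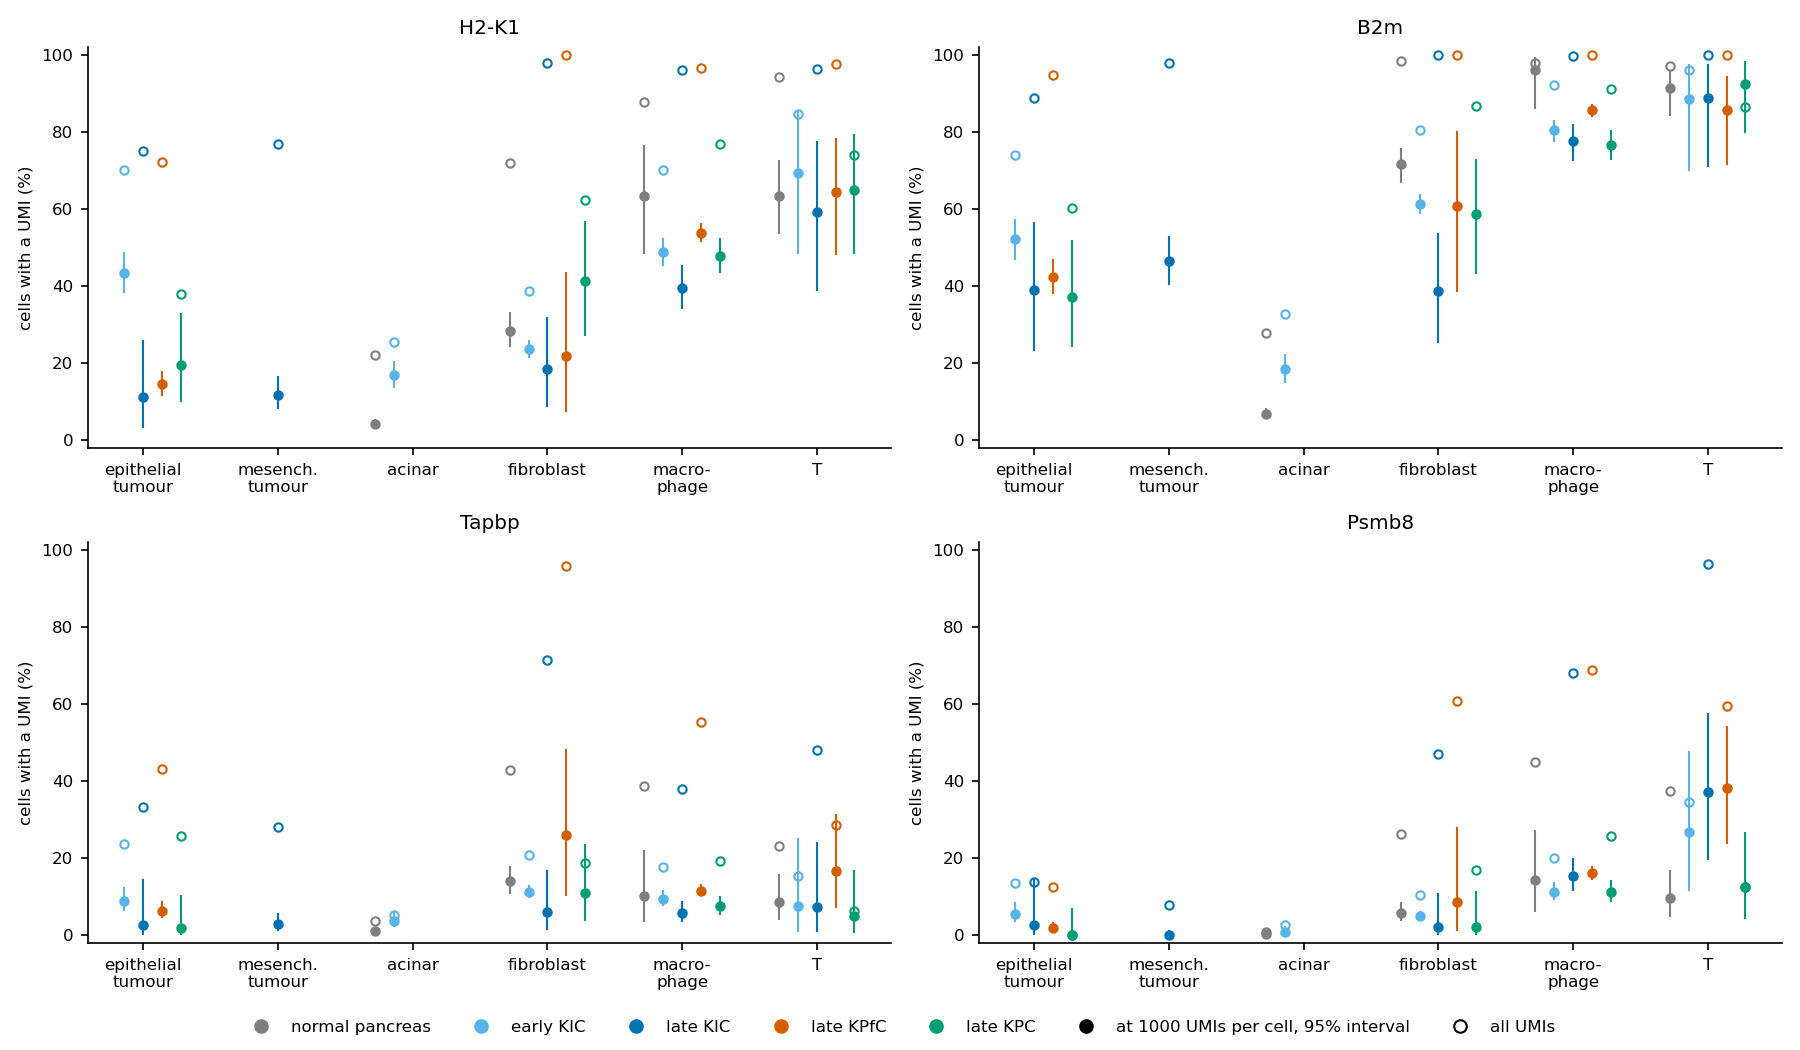
Share of cells with a UMI (percent) of H2-K1, B2m, Tapbp and Psmb8 by compartment and library; filled points are at 1000 UMIs per cell with exact (Clopper-Pearson) 95% intervals, open points are with all UMIs. The open points of H2-K1 in late KIC tumour cells, at 75.0% and 76.7%, become 11.1% and 11.8% at 1000 UMIs, below the 43.4% of early KIC.

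The UMI ratio of H2-D1 to H2-K1 differed between libraries, and it was used only to compare cells with each other, not the levels of these 2 genes. In macrophages it was 3.57 (3.05 to 4.19) in normal pancreas, 3.59 (3.35 to 3.84) in early KIC, 2.703 (2.54 to 2.87) in late KIC, 2.17 (2.12 to 2.22) in late KPfC and 1.37 (1.27 to 1.48) in late KPC. In T cells it ran from 2.13 (1.89 to 2.402) in normal pancreas to 0.802 (0.634 to 1.01) in late KPC, and in fibroblasts from 3.54 (3.25 to 3.87) to 0.778 (0.524 to 1.15). Late KPC was thus the lowest library in all 3 classes. Tumour cells did not keep this order: the ratio was 1.19 (1.06 to 1.32) in epithelial cells of early KIC, 2.500 (1.94 to 3.24) in late KIC, 1.75 (1.62 to 1.88) in late KPfC and 2.05 (1.39 to 3.07) in late KPC, and 3.23 (2.97 to 3.52) in mesenchymal cells. Early KIC epithelial cells were therefore low beside the macrophages of their own library, while the interval of late KPC epithelial cells overlapped that of its macrophages. The low ratio in early KIC was not particular to the epithelial tumour class. Acinar cells of that library had 1.575 (1.29 to 1.92) and endocrine cells 1.49 (1.25 to 1.78). C57BL/6 and FVB mice carry different H2 haplotypes and the genome used for counting is that of C57BL/6. Strain and group cannot be told apart for late KPfC, and the part of haplotype in the mixed groups was not tested.

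**Figure D5:**
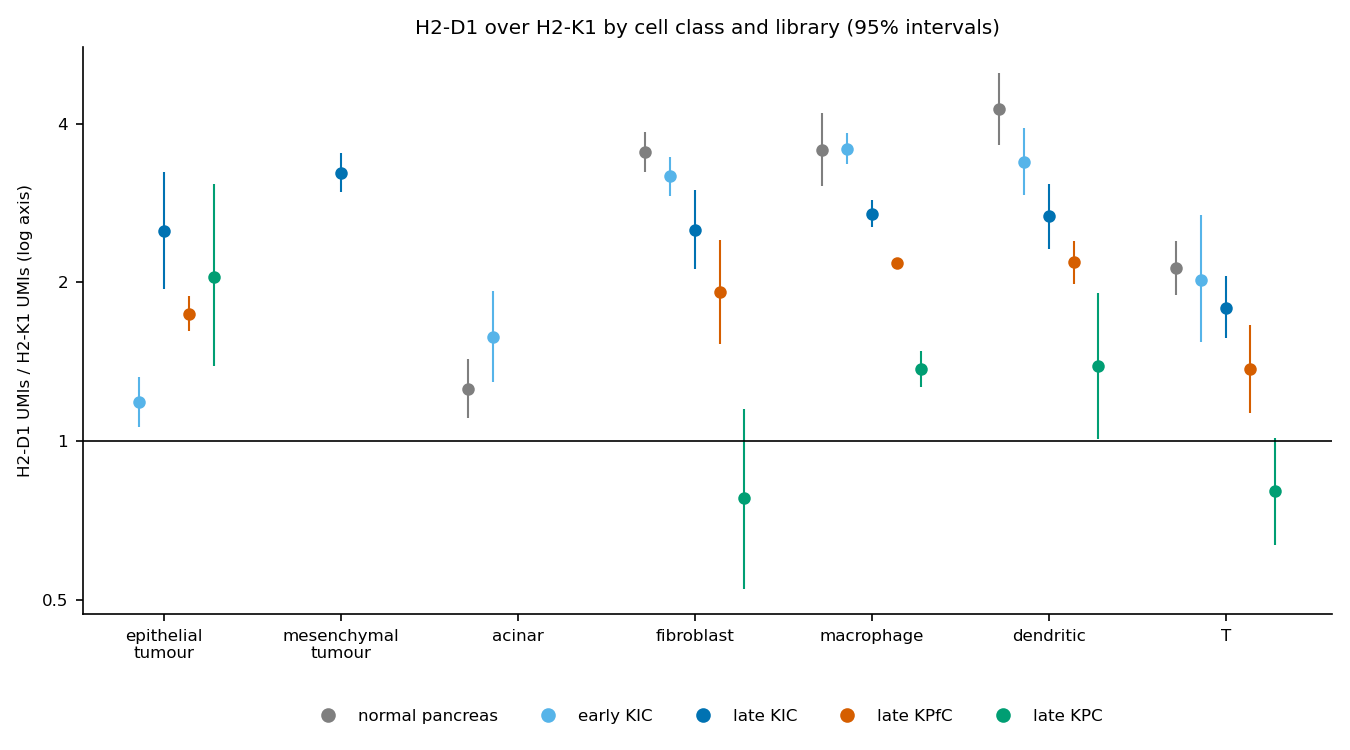
UMIs of H2-D1 over UMIs of H2-K1 (log axis) by class and library; bars are exact 95% intervals. Macrophages, T cells and fibroblasts are lowest in late KPC, with 3.57 in normal pancreas and 1.37 in late KPC macrophages. Epithelial tumour cells of early KIC sit at 1.19 and acinar cells of that library at 1.575.

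The members varied together over 39 combinations of class and library with enough cells. Each member's log2 level (CPM plus 10) had a Pearson r with the mean of the other members of 0.751 (Tapbp) to 0.921 (Psmb9), apart from Nlrc5, at 0.399. Nlrc5 had at least 20 UMIs in 1 of the 39. Tap1, Tap2 and Psmb9 had as many in 10, 15 and 18 of them, so these r values rest largely on low counts. Of 1871 genes ranked by their r with the mean of the members, the most alike were Psme1 (0.894) and Psme2 (0.840), which encode the proteasome activator subunits, and Rgs10 (0.825), Tmem123 (0.823) and Gm2a (0.813). H2-Q7, another class I heavy chain (0.812), Samhd1 (0.807), Mpc1 (0.803), Stat3 (0.803) and Gltscr2 (0.797) followed. These points share libraries, depth and free RNA, and the values are descriptions.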

How the data were processed

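The counts are deposited UMI counts per gene and cell barcode, from the authors' run of Cell Ranger 2.1.1 against GRCm38 per the submitters' processing notes, on libraries of the 10x Genomics 3′ kit v2 per the labels' protocols. The sources used here do not give the annotation release, the strand setting or the handling of reads matching several genes. Gene symbols and barcodes came with the counts, and all 5 libraries had the same 27998 genes.

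The members and gene lists were chosen with earlier results of these data known. Barcodes were kept from 200 genes and 500 UMIs upwards if mitochondrial UMIs made up no more than 20%: 2386 in normal pancreas, 3529 in early KIC, 836 in late KIC, 2933 in late KPfC and 1034 in late KPC. Doublets were not removed. With scanpy 1.11.5 and Python 3.11.15, the 2000 most variable genes, with 76 member and list genes held out, were reduced to 30 components, linked through 15 neighbours and clustered by Leiden at resolution 1 (leidenalg 0.10.2, seed 0), without batch correction. The 32 clusters were named from 142 markers; 242 cells stayed unnamed.

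UMIs were summed per class and library and divided by the class total (CPM). Intervals at 95% are exact Poisson for CPM, Clopper-Pearson for shares and conditional binomial for ratios, computed with scipy 1.17.1. They cover counting error only. A class needed 30 cells, and 20 for tumour against T cells, a limit lowered after seeing the data. A count of 0 was set to 3 UMIs in ratios. Counts of genes 2-fold apart stand beside the same share over all genes with at least 20 UMIs; with 1 library per group, no test was possible. All members were named, and from other lists at most 4 genes per comparison, those with the widest ratios. The 10 planned and 2 added alternatives are under the closing heading on processing. The scripts were tested on simulated data. One allele that the models share is not reported here.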

Additional observations from a re-analysis of the deposited data

Results flagged for a closer look

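Barcodes with fewer than 200 genes enter no comparison above, and those of late KPfC had a higher share of class I UMIs than those of normal pancreas. They had 42.48 CPM of H2-D1 (19.42 to 80.64), from 9 UMIs, against 6.903 CPM (2.775 to 14.22) in normal pancreas. B2m was at 75.52 CPM (43.17 to 122.6) there, from 16 UMIs, against 17.75 CPM (10.52 to 28.05) in normal pancreas. There were 63 such barcodes in late KPfC and 258 in normal pancreas. H2-D1 in late KIC, at 20.56 CPM, and B2m in late KIC and late KPC, at 26.16 and 28.60 CPM, were also above the normal pancreas values, with overlapping intervals. The difference was not tested.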

How the results depend on the processing

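The number of members called kept within 1.5 times its value in 199 of 226 alternatives. Each comparison followed only the direction, lower or higher, that held more members above, so a reversal of a count was not looked for. Besides the reversals below, 193 of 1777 member ratios, 74 of 221 summed levels and 510 of 790 shares of cells moved by more than their counting interval. The shares moved mostly under thinning, which lowers them by construction. For tumour over macrophage the number of members called moved in early KIC, to 4 of 9 lower with ratios centred on all genes. For tumour over T it was 3 of 3 in late KIC and 5 of 5 in late KPfC with cells thinned to 1000 UMIs, 4 of 5 in late KPfC with cells holding markers of another class left out, and 9 of 10 in late KPC without the minimum of 20 UMIs. Mesenchymal over epithelial cells gave 0 of 3 thinned and 4 of 8 without the minimum. Late KIC over late KPfC gave 2 of 5 thinned and 1 of 5 without other-class cells over all tumour cells, and 1 of 4 thinned in epithelial cells. Late KPC over late KPfC gave 1 lower under the stricter cell filter, at resolution 2 and thinned, and 2 without other-class cells, both over all tumour cells and in epithelial cells. Acinar cells gave 2 of 6 higher with centred ratios. Fibroblasts of late KIC over early KIC gave 3 thinned, 3 centred and 2 with the mesothelial cluster joined. Macrophages gave 2 lower for early KIC over normal pancreas with each library clustered on its own and 1 thinned, 2 for late KIC over late KPfC thinned and 1 without other-class cells, and 2 for late KPC over late KPfC thinned. Thinning and leaving out cells also left fewer genes measured; other causes were not tested. Sign changes were counted only for single ratios at least 2-fold apart in the comparisons above, and 3 such ratios changed sign. H2-T23 for tumour over macrophage in late KPC went to a log2 of 0.35 by the mean of the cells' own CPM. In fibroblasts of late KIC over early KIC, thinning took Psmb9 to 0.0291 and H2-T23 to 0.15. Ratios within 2-fold that changed sign are not in this number. No paired analysis was possible because each group has 1 library. Lowering the cell minimum to 20 and joining the mesothelial cluster were chosen after seeing the data. Depth limits Nlrc5 in every class, and Tap1, Tap2, Psmb8 and Psmb9 in the 36 and 58 epithelial cells of late KIC and late KPC.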
